A study of Mus musculus with 8 samples.

Results

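Interferon-stimulated genes were followed as 39 members, listed by symbol, among the 16902 genes of an RNA sequencing study of mouse epidermis. All 39 symbols were found in both deposited tables. RNA was taken from back skin epidermis of CD1 mice after dispase had loosened the dermis. The mice carried different alleles of Ovol1, which encodes a zinc-finger repressor expressed in epidermis, and were untreated or treated. Untreated mice were labelled Ovol1 +/- (controls) or Ovol1 -/-. Mice given IMQ (imiquimod, a Toll-like receptor agonist used to bring on psoriasis-like inflammation in mice) were labelled Ovol1 +/+ (controls) or Ovol1 -/-. Each of the 4 groups held 2 libraries, 1 from a female and 1 from a male. Controls of the IMQ comparison were thus of another genotype than untreated controls. The sources used here do not give the age of the mice or the dose and length of IMQ treatment.

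Interferons are secreted proteins that warn cells of infection. Type I interferons bind the receptor of Ifnar1 and Ifnar2, and the kinases Jak1 and Tyk2 relay the signal. Stat2 and Irf9 act in a complex that binds a response element in the promoters of many interferon-stimulated genes. The products block viral translation and replication, sense RNA, attach the ubiquitin-like protein ISG15 to other proteins, or feed back on the pathway. Imiquimod acts through Toll-like receptor 7, which in skin is best known from plasmacytoid dendritic cells, strong producers of type I interferon.

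The response element has a repeated core, written here as GAAA, any 2 bases, then GAAA, and searched on both strands, so that it can also read TTTC, any 2 bases, then TTTC. Promoter windows of 300 bases (250 before the transcription start and 50 after it) were available from RefSeq (GRCm38.p6) for 32 of the 39 members. The core lay in 16 of these 32 (50%), against 3.99% of the 27025 genes with a window. The 200 bases before the start of 5 members are shown because these members differ in how many cores they hold and, below, in how far they stood apart between genotypes. Capitals mark the cores.
Isg15, chr4:156200819-156201018, minus strand: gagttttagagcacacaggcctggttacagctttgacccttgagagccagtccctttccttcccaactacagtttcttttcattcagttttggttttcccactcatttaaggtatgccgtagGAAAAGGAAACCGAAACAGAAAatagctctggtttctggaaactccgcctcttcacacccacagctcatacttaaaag
Ifit1, chr19:34640689-34640888, plus strand: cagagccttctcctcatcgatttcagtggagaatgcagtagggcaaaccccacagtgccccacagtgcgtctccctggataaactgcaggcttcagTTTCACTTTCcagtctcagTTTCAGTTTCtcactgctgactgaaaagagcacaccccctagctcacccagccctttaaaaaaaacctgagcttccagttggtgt
Ifit3, chr19:34583329-34583528, plus strand: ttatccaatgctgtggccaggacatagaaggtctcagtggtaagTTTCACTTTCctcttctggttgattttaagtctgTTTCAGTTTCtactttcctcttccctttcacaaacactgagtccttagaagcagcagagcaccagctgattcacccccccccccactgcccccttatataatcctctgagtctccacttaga
Ifit3b, chr19:34607757-34607956, plus strand: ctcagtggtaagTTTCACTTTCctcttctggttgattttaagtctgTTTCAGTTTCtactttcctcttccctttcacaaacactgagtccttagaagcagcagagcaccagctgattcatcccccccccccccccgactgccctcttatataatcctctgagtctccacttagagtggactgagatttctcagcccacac
Rsad2, chr12:26456453-26456652, minus strand: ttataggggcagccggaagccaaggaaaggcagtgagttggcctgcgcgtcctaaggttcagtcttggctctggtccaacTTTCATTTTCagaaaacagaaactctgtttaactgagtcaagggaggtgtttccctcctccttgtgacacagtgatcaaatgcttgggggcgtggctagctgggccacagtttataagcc
Isg15 held 3 cores that overlap, Ifit1, Ifit3 and Ifit3b held 2 each, and Rsad2 held 1. The Ifit3 and Ifit3b promoters share a run of 169 identical bases. The genes are close copies, so reads may have been split between them and their separate values are uncertain. No core was found in the windows of Ifit2, Cmpk2, Irf7 or Trim25. A match describes letters in this window only.

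The libraries held 28.6 to 43.1 M reads, recovered from the deposited values, which are reads over a size factor for each library and are called normalised counts here. Ovol1 itself stood higher in the libraries labelled -/-, at 27433 and 26601 normalised counts against 16629 and 14582 in untreated skin and at 13457 and 13076 against 7635 and 9556 under IMQ. With 1 value per gene and no exon values, Ovol1 does not check the labels, so the term labelled knockout is used for the -/- libraries. Keratinocyte markers Krt5, Krt14, Krt1, Krt10, Trp63 and Dsp summed to 624827 to 1161770 normalised counts in every library, so the markers of the labelled tissue were present. The p-values measure the spread between 1 female and 1 male per group. With bulk RNA, fewer cells of a type and less RNA per cell cannot be told apart.

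One library stood apart for the members. The female IMQ control was the highest of the 4 IMQ libraries for 39 of 39 members, against 29.2% of the 14614 genes tested. It was above the male IMQ control for all 39 (47.1% of genes tested), with a median difference of 1.06 on the log2 scale. Among the IMQ labelled knockouts the female library was above the male one for 33 members (51.6% of genes tested), with a median of 0.61. In untreated skin the order was otherwise, with the female above the male for 9 members in the controls (49.5% of genes tested) and for 18 in the labelled knockouts (49.0%). With 1 animal of each sex per group, sex and the single animal cannot be told apart. Results under IMQ are therefore given with both same-sex pairs, and without the female control where it changes them.

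**Figure D1:**
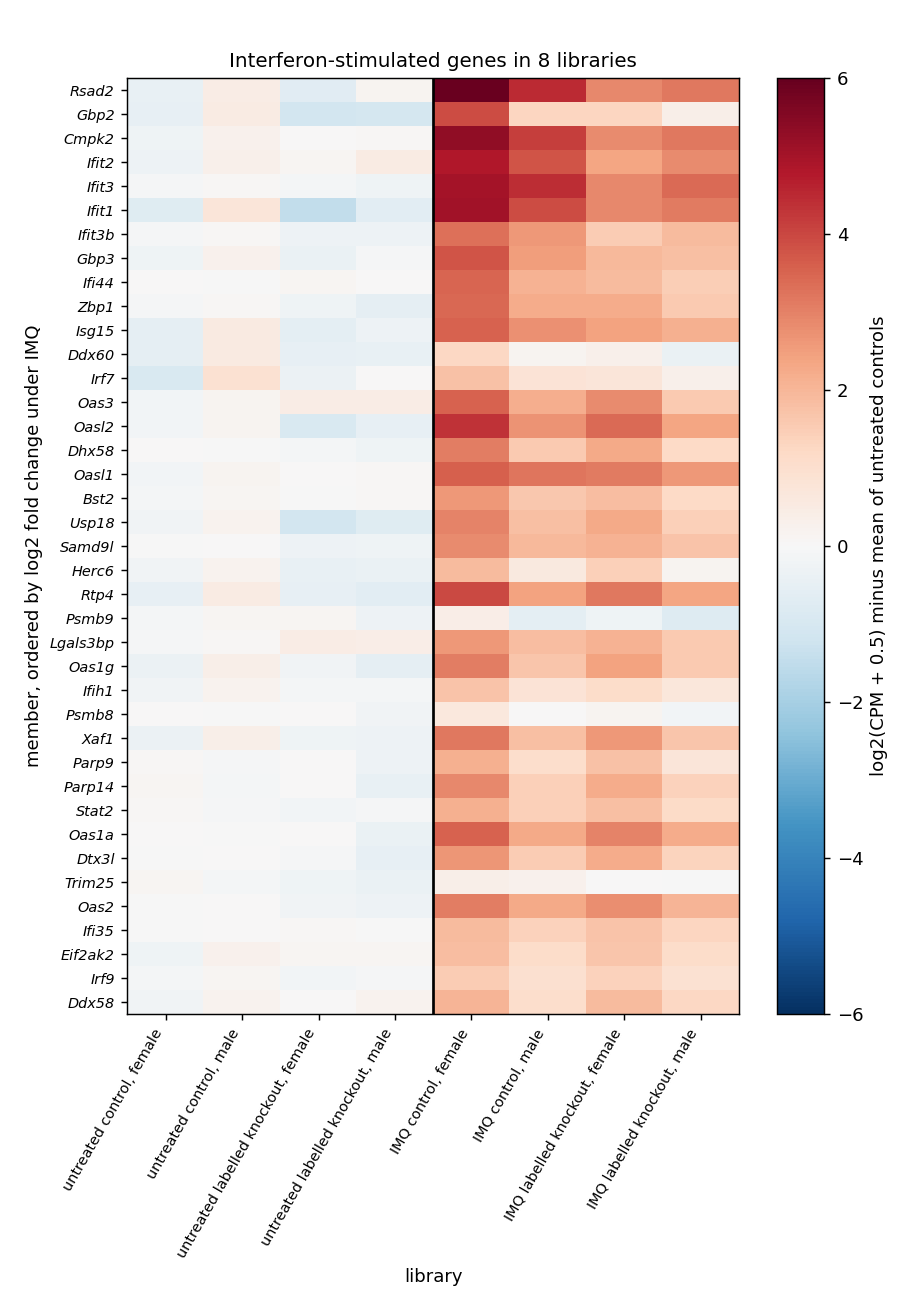
Level of each of the 39 members (rows, ordered by the genotype difference under IMQ) in the 8 libraries (columns), as log2(CPM + 0.5) minus the mean of the untreated controls, where CPM is reads scaled to a common library total. The 4 IMQ columns are red for most rows, and the female IMQ control is the highest IMQ column for all 39 members.

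The first question was how far the members differed between IMQ and untreated libraries. Most stood higher with IMQ in both controls and labelled knockouts. Controls were Ovol1 +/- untreated and +/+ with IMQ, so among controls treatment and genotype cannot be told apart. The top values were those of Rsad2, Cmpk2, Ifit3 and Ifit1 in the controls and of Ifit1, Oasl2, Ifit3 and Rtp4 in the labelled knockouts, leaving aside Ifit3b, which had no reads in the untreated labelled knockouts. The tables were normalised separately, so this was described on log2(CPM + 0.5) of recovered reads, a scale that understates the change of low genes, and it was not tested. In the controls both IMQ libraries lay above both untreated ones for 36 of 39 members (35.1% of genes tested). The exceptions were Irf7, Ddx60 and Psmb9. In the labelled knockouts this held for 37 members (39.5%), with Psmb8 and Psmb9, subunits of the immunoproteasome, as the exceptions. Those shares say little alone, since many of the genes tested met the rule. Members at least 4-fold higher without overlap numbered 26 in the controls, against 1.57% of genes tested, and 20 in the labelled knockouts, against 2.50%. Ifit3, Ifit3b, Oasl1 and Ifi44 had passed the filter on low values only through the IMQ table, so a high fold was partly built in for them. Without these 4 members the counts were 22 and 17 of 35. The median member stood higher by 2.39 in controls and by 2.02 in labelled knockouts, while the medians of all genes tested were 0.02 and -0.02.

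Rsad2, which encodes viperin, an enzyme that makes a chain-terminating nucleotide, showed the highest value in the controls. Its normalised counts were 22.5 (female) and 56.9 (male) in untreated controls and 2793 and 997 in IMQ controls, a 36.7-fold difference. In the labelled knockouts they were 16.6 and 44.3 without IMQ and 327 and 393 with it, 9.70-fold. These folds, and those below, come from group means of log2(CPM + 0.5). Where untreated values are low, the folds are smaller than the printed counts would give. The IMQ libraries thus lay far above the untreated ones in both genotypes, but the 2 labelled knockouts under IMQ lay below both controls. Cmpk2, the neighbouring gene, encodes a mitochondrial nucleotide kinase and showed the same order. It was at 6.05 and 16.1 in untreated controls, 958 and 417 in IMQ controls (26.9-fold), 11.4 and 12.4 in untreated labelled knockouts and 161 and 202 in IMQ labelled knockouts (7.81-fold). Rsad2 lies at chr12:26442746-26456452 on the minus strand and Cmpk2 at chr12:26469204-26479837 on the plus strand, 12.8 kb apart and transcribed away from each other (GENCODE vM21, GRCm38).

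The Ifit genes encode tetratricopeptide proteins that bind viral RNA or its translation factors, and Ifit2, Ifit3, Ifit3b and Ifit1 lie in that order on chromosome 19. Ifit1 was at 23.3 and 95.6 normalised counts in untreated controls and 1835 and 847 in IMQ controls (22.2-fold), and at 6.22 and 26.8 against 417 and 476 in labelled knockouts (16.7-fold). Ifit2 was at 7.77 and 22.5 against 738 and 359 in controls (19.5-fold). In labelled knockouts it was at 17.6 and 28.9 against 128 and 178 (4.90-fold). Both genes were far above their untreated level with IMQ in each genotype. Ifit3 was at 2.59 and 4.29 against 560 and 378 in controls and at 2.07 and 0 against 121 and 179 in labelled knockouts. Ifit3b was read 4 and 5 times in untreated controls and is listed at 0 in both untreated labelled knockouts. With a floor of 3 reads per library and no added 0.5, it was at least 19.0-fold higher in the IMQ labelled knockouts. On the scale of the other members it was 4.08-fold higher, so the bound cannot be set beside their folds.

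Some other members differed by similar factors in both genotypes, but not all. Oas3 was 7.17-fold higher in controls and 3.39-fold in labelled knockouts, and Gbp3 8.79-fold and 4.29-fold. Over the 39, the log2 difference in labelled knockouts minus that in controls had a median of -0.27, against -0.01 over all genes tested. That value also carries the change of control genotype. The following were among the similar ones. Oas1a, which makes the 2-5A messenger that activates RNase L, was 7.54-fold higher in controls and 6.90-fold in labelled knockouts. Oasl2 was 11.5-fold and 12.1-fold higher, and Rtp4 9.22-fold and 9.97-fold. Usp18, the protease that removes ISG15 and dampens the receptor, was 5.22-fold higher in controls and 6.80-fold in labelled knockouts. Trim25, a ubiquitin ligase that activates the RNA sensor Ddx58 (RIG-I), was 1.24-fold and 1.27-fold higher. Psmb9 did not stand higher, at 0.940-fold and 0.744-fold of its untreated level.

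**Figure D2:**
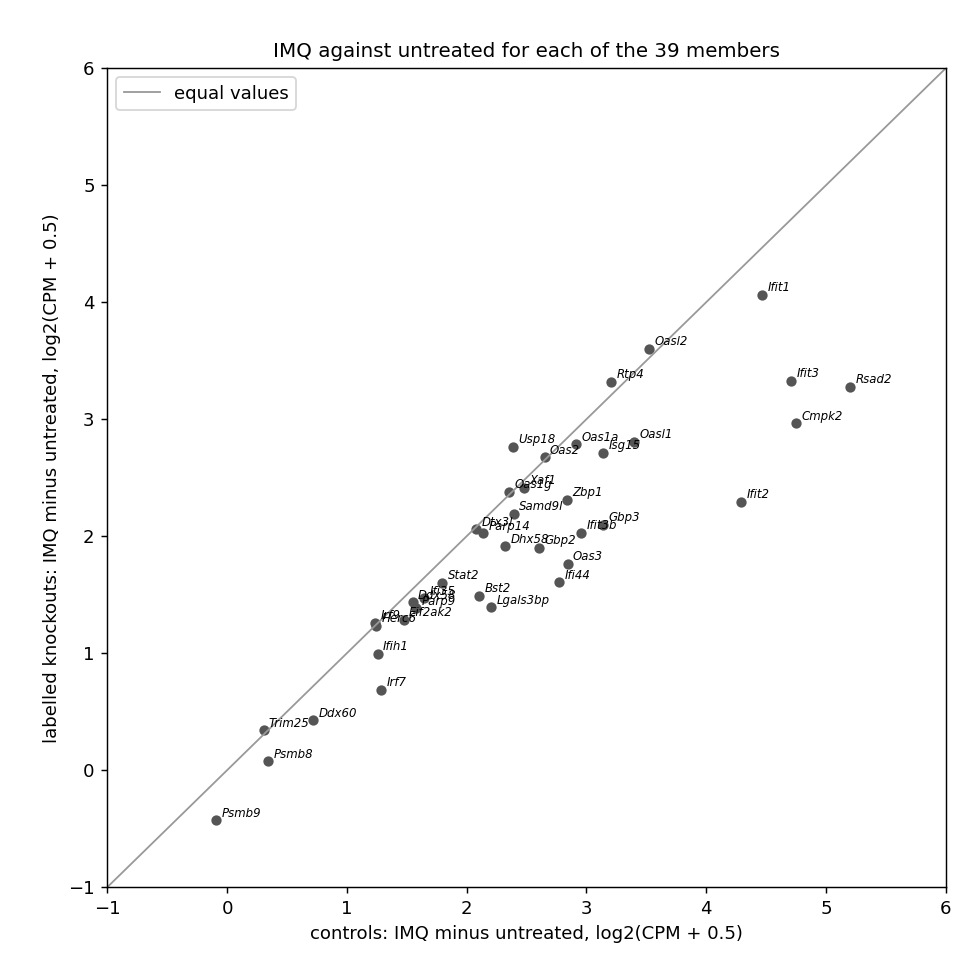
IMQ minus untreated in controls (horizontal axis) against labelled knockouts (vertical axis), each as a difference of group means of log2(CPM + 0.5), with 1 point per member and a line of equal values. Rsad2, Cmpk2, Ifit2 and Ifit3 lie farthest below the line, and Oas1a, Oas2, Oasl2, Rtp4 and Usp18 lie near or above it.

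The IMQ comparison then asked how the members differed between labelled knockouts and controls that had both received IMQ. 38 of 39 members had a negative log2 fold change (labelled knockout minus control), against 51.2% of genes tested, and the median was -0.48 against -0.01 over all genes tested. None of the 39 passed limma's Benjamini-Hochberg adjusted p of 0.05, where 64 of all genes (0.438%) did. At an unadjusted p under 0.05, 7 members were lower (Ifit2, Ifit3, Ifit3b, Rsad2, Cmpk2, Trim25 and Gbp3), and 11.9% of genes tested were lower by that rule, so the share of members, 17.9%, was not far from the background. DESeq2 on recovered reads called 4 of them lower, Rsad2 (adjusted p = 6.08e-04), Ifit3 (9.92e-04), Cmpk2 (0.00126) and Ifit2 (0.00465), where it called 4.50% of genes tested lower. edgeR's quasi-likelihood test called 0 members and 0.294% of genes tested, with 11 members lower at an unadjusted p under 0.05, against 12.1% of genes tested. No member was higher at an unadjusted p under 0.05 in limma, against 10% of genes tested. Without the female IMQ control the members' median was 0.032, with 18 of 39 negative (50.4% of genes tested) and 0 at an unadjusted p under 0.05. That fit sets 1 male control against a female and a male labelled knockout.

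By same-sex pairs, 37 members were lower in both (34.6% of genes tested). Their median in the female pair was -0.68, where all 39 were negative, and in the male pair -0.34, where Ddx58 was at 0.18 and Eif2ak2 at 0.00. The 10 members lower by at least 1 on the log2 scale (6.38% of genes tested) were Ifit1, Ifit2, Ifit3, Ifit3b, Rsad2, Cmpk2, Ifi44, Zbp1, Gbp2 and Gbp3. Without the female control 5 remained past that size (6.21% of genes tested), Ifit2, Ifit3, Ifit3b, Rsad2 and Cmpk2, while Ifit1 was at -0.93, Gbp3 at -0.70, Ifi44 and Gbp2 at -0.49 and Zbp1 at -0.36. Both labelled knockouts lay below both controls for 12 members (26.4% of genes tested) and above them for 0 (26.6%). The members' share of 30.8% is close to the background share of 26.4%, so this count alone does not set the list apart.

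**Figure D3:**
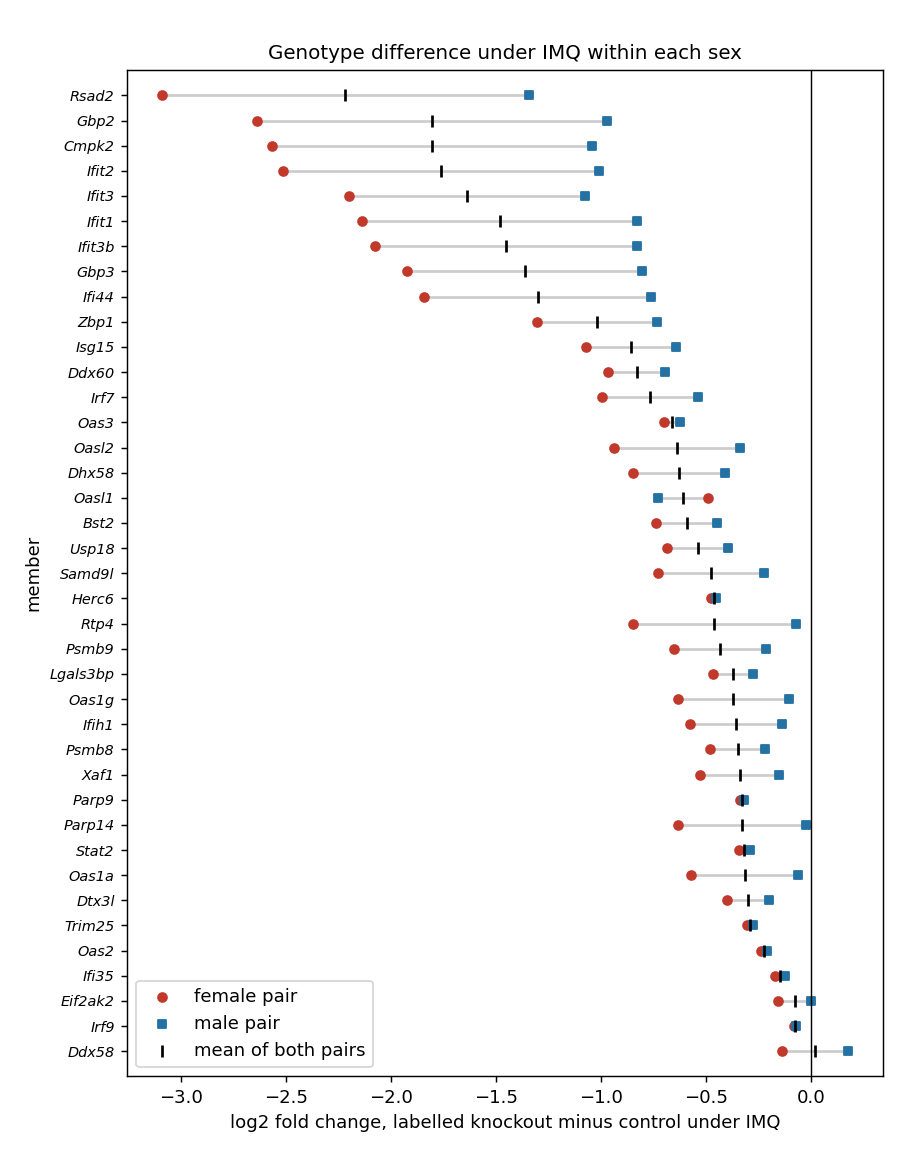
Log2 fold change of labelled knockout minus control under IMQ (horizontal axis) for each member (vertical axis), in the female pair (circles), the male pair (squares) and their mean (bars). Rsad2 shows the widest gap, -3.09 (female pair) and -1.34 (male pair), and Ddx58 is the member with a positive value of 0.18 in the male pair.

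Among the antiviral effectors (19 members), all 19 log2 fold changes were negative, with a median of -0.64. Without the female control 11 were negative and the median was -0.08, and Oas1a, Oas1g, Oas2, Oas3, Oasl2, Xaf1, Rtp4 and Eif2ak2 were positive. Rsad2 was at -2.22 (SE 0.65, limma adjusted p = 0.128), and both labelled knockouts were at a similar level while the controls lay farther apart. Cmpk2 was at -1.80 (SE 0.52, adjusted p = 0.125), Ifit2 at -1.76 (SE 0.55, 0.142) and Ifit3 at -1.64 (SE 0.58, 0.171). The female control held the top value for each of these, and without it they were at -1.47, -1.21, -1.24 and -1.35 in turn, with adjusted p of 0.407 to 0.481. Ifit1 was at -1.48 (SE 0.80, adjusted p = 0.311), with labelled knockouts at 417 and 476 against 1835 and 847. Its groups did not overlap, but the gap between the 2 controls was wider than that between the male control and either labelled knockout. Ifi44, an interferon-induced protein of the cytoplasm, was at 177 and 57.1 in controls against 48.7 and 33.3 in labelled knockouts. Oasl1 was at 186 and 144 against 132 and 86.5, a log2 fold change of -0.61 (SE 0.75, adjusted p = 0.666).

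The other effectors lay nearer to 0 or overlapped between the groups. Zbp1, a sensor of Z-form nucleic acid, was at 296 and 118 in controls against 119 and 70.4 in labelled knockouts, so the male control lay just below the female labelled knockout. Oas2 was at 483 and 273 against 409 and 236, and Oas1a at 872 and 349 against 587 and 335. In both the sexes differed more than the genotypes. Eif2ak2, the kinase PKR that halts translation on double-stranded RNA, was at -0.08, with 1506 in the male control and 1507 in the male labelled knockout.

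The ISG15 system (4 members) had a median of -0.50. Isg15 itself was the most abundant member per length, at an RPKM (reads per kilobase of exon, scaled to a common library total) of 105 in the IMQ controls and 56.2 in the IMQ labelled knockouts. The controls were at 3056 and 1818 normalised counts and the labelled knockouts at 1455 and 1165, without overlap (log2 fold change -0.86, SE 0.38, adjusted p = 0.244). Trim25 was at 4471 and 4194 against 3623 and 3460, with little spread within a group (-0.29, SE 0.12, adjusted p = 0.228). Usp18 and Herc6, the ligase that attaches ISG15 in mice, were at -0.54 and -0.46, and their groups overlapped.

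The transcription factors (3 members) had a median of -0.32. Irf7, the factor that amplifies type I interferon production, was at 2073 and 1085 in controls against 1039 and 747 in labelled knockouts (-0.77, SE 0.56, adjusted p = 0.453). Stat2 was at -0.32 and Irf9 at -0.08, with Irf9 at 4551 and 3176 against 4304 and 3026. For both the sexes lay farther apart than the genotypes. The RNA sensors (4 members) had a median of -0.49. Ddx58 was at 1520 and 763 against 1379 and 863, a log2 fold change of 0.02. Ifih1 (MDA5) was at -0.36, Dhx58 (LGP2), a regulator of these sensors, at -0.63, and Ddx60 at -0.83.

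Parp9, Parp14 and Dtx3l, which act in ADP-ribosylation and ubiquitin transfer and lie together on chromosome 16, were at -0.33, -0.33 and -0.30. Parp9 and Dtx3l overlap on opposite strands, and whether counting used strand is not given in the sources used here. Gbp2 and Gbp3, guanylate-binding GTPases that attack vacuoles of intracellular microbes and respond strongly to interferon gamma, were at -1.80 (SE 0.79, adjusted p = 0.233) and -1.36 (SE 0.57, 0.218). Gbp2 was at 4360 in the female control, 698.8 in the male control, 699.8 in the female labelled knockout and 356 in the male one. Only the female control lay well above the rest. Gbp3 was at 376 and 148 against 98.4 and 84.6, without overlap. Gbp genes share sequence, and reads may have been split among them. Psmb8 and Psmb9 were at -0.35 and -0.43, and Ifi35 and Lgals3bp at -0.15 and -0.37.

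**Figure D4:**
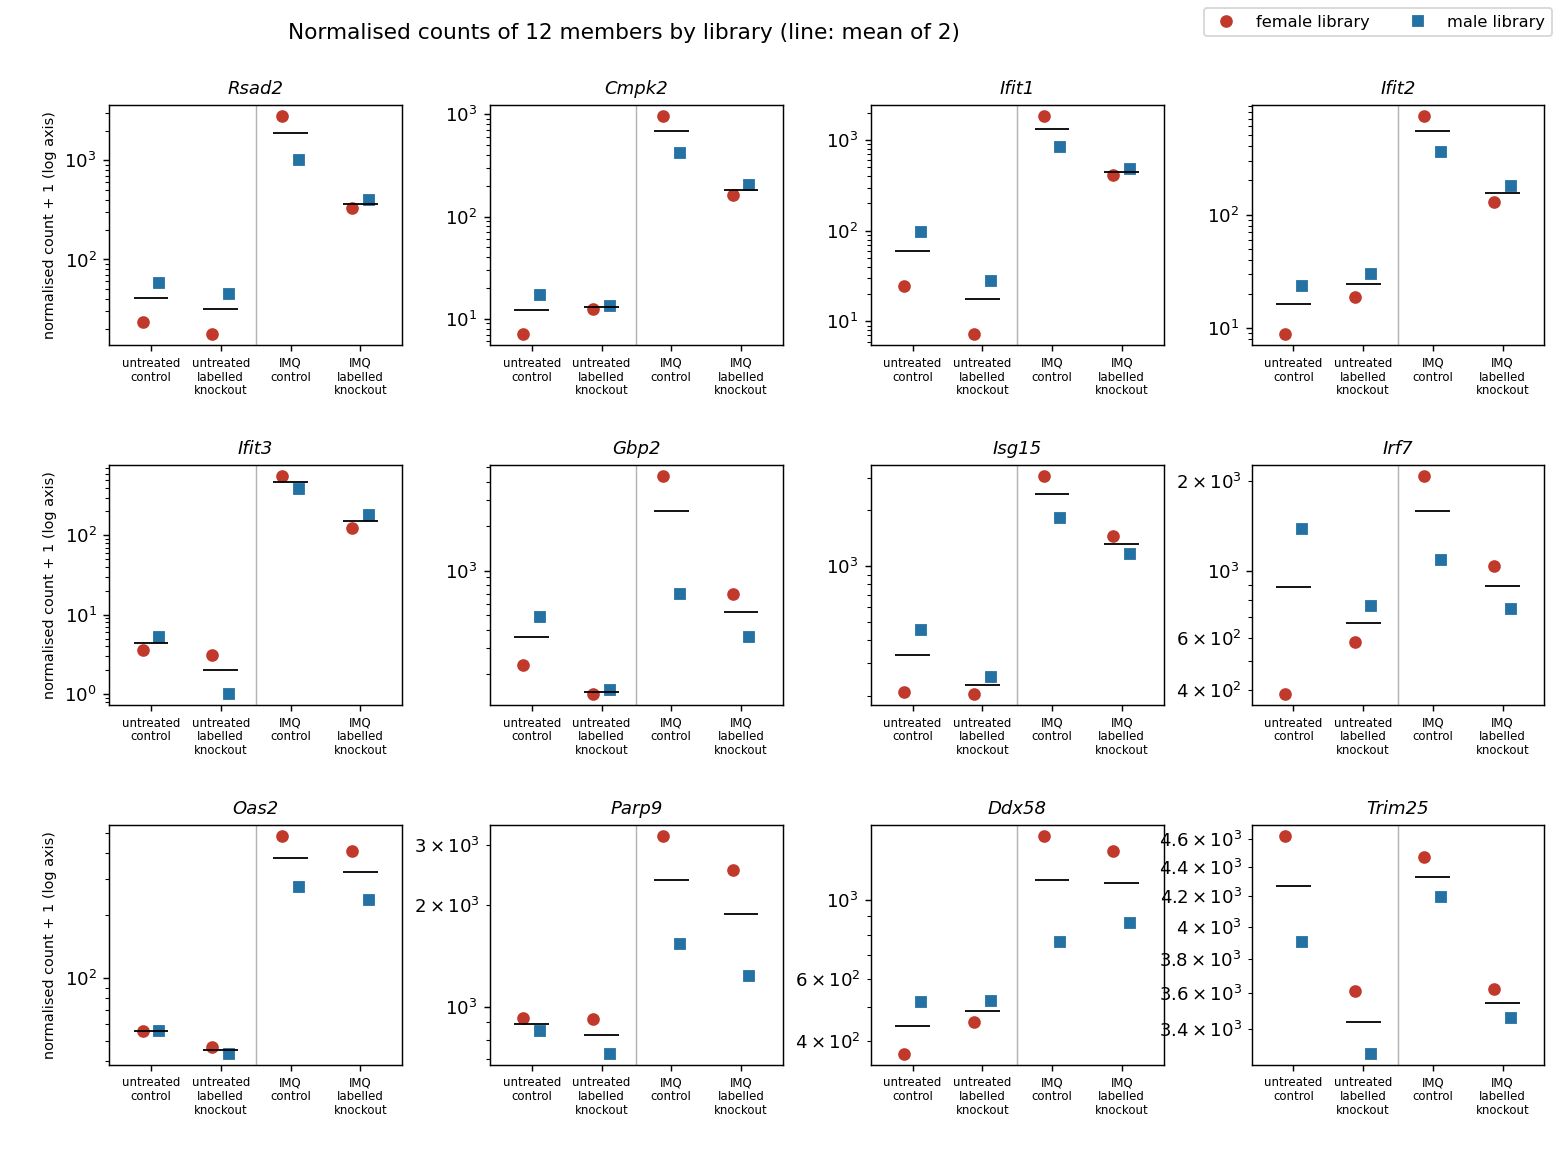
Normalised count plus 1 on a log axis for 12 members in the 4 groups, with a circle for the female library, a square for the male library and a line at the mean of the 2. Untreated and IMQ groups come from tables normalised separately. For Rsad2, Cmpk2, Ifit1, Ifit2 and Ifit3 both IMQ labelled knockouts lie below both IMQ controls. Oas2, Parp9 and Ddx58 are higher in the female than in the male IMQ library of each genotype.

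Without the female IMQ control the other roles also lay nearer to 0 or turned. The median was -0.10 for the ISG15 system, 0.03 for the transcription factors, 0.13 for the RNA sensors, 0.27 for Parp9, Parp14 and Dtx3l, 0.06 for Ifi35 and Lgals3bp, and -0.27 for the Gbp and immunoproteasome members. That fit sets the male control against both labelled knockouts, of which the female stood above the male for 33 of 39 members. In the male pair, which keeps sex matched, the medians in the same order were -0.42, -0.29, -0.27, -0.20, -0.20 and -0.51. For the antiviral effectors the male pair had a median of -0.62.

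Members with and without the core were then set side by side. The 16 members with a core had a median log2 fold change of -0.75 under IMQ and the 16 without it -0.45. Both medians include the female IMQ control. Each set held 6 members whose labelled knockouts both lay below both controls, a rule that 26.4% of genes tested met. Members placed so thus included some with no core in the window, such as Ifit2 and Cmpk2.

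In untreated epidermis the members ranged from a few reads (Ifit3, Ifit3b, Oasl1 and Ifi44) to 3266 to 4623 normalised counts for Trim25, and no genotype difference was called. Of the 39, 29 were negative (50.5% of genes tested), with a median of -0.24 against -0.00 over all genes tested. Limma called 0 of 39 and 0% of all genes, and at an unadjusted p under 0.05, 3 members were lower (Ifit3b, Usp18 and Trim25), against 1.67% of genes tested. Of these, Ifit3b had passed the filter through the IMQ table alone, and its untreated value rests on 4 and 5 reads against 0 and 0. edgeR also called 0 members and 0% of genes tested, and DESeq2 called 0 members and 0.609% of genes tested. The female pair had a median of -0.01 and the male pair one of -0.37, and 20 members were lower in both (28.5% of genes tested). It was -0.02 without the male control, with 20 of 39 negative.

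Usp18 was at 161 and 215 in the untreated controls and 76.7 and 108 in the labelled knockouts (-1.02, SE 0.44, limma adjusted p = 1.00). Trim25 was at 4623 and 3906 against 3607 and 3266 (-0.31, SE 0.12, adjusted p = 1.00), nearly the same difference as under IMQ. Gbp2 was at 230 and 483 against 146 and 155 (-1.14, SE 0.79, adjusted p = 1.00). These 3 were among the 12 members whose labelled knockouts both lay below both controls (16.4% of genes tested). Oas3, Ifi44, Ifi35 and Lgals3bp lay above (17.4%), with Lgals3bp at 329 and 321 against 221 and 240. The 7 members lower by at least 1 (1.26% of genes tested) were Ifit1, Ifit3, Ifit3b, Usp18, Rtp4, Zbp1 and Gbp2. Of these, Ifit3 and Ifit3b had 5 reads or fewer in each untreated library, while Rtp4 was at 8.24 to 39.7 normalised counts and Zbp1 at 5.15 to 18.3. The counting error of such values is large.

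The 2 untreated controls lay far apart for Irf7, at 388 in the female and 1384 in the male. Isg15 was at 208 and 453 there, and Ddx60 at 84.7 and 202. The labelled knockouts lay between or below these values, so their genotype differences are smaller than the gap between the controls.

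The difference of the genotype contrasts (IMQ minus untreated) compared the gap between labelled knockouts and controls with and without IMQ. Controls were Ovol1 +/- untreated and +/+ under IMQ, so treatment and control genotype cannot be told apart here. The difference was negative for 29 members (52.7% of genes tested), with a median of -0.21, and limma called 0 of 39 and 0% of all genes. At an unadjusted p under 0.05, 2 members were lower, Ifit2 (-2.47, adjusted p = 0.476) and Cmpk2 (-2.03, adjusted p = 0.476), against 6.02% of genes tested. Ifit2 was higher in untreated labelled knockouts (17.6 and 28.9 against 7.77 and 22.5) and lower under IMQ. Without the female IMQ control the members' median turned to 0.24, and without the male IMQ labelled knockout to 0.08.

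The rest of the pathway was read from lists of genes outside the 39. Of 21 interferon ligand genes, 2 were in the tables, Ifnk and Ifng, with 3 to 18 and 0 to 6 reads per library. The others are not analysed here. Tlr7, the imiquimod receptor, had 0 to 13 reads per library and was not tested. The receptor genes Ifnar1 and Ifnar2 were at 0.06 and 0.36 under IMQ, and Jak1 and Tyk2 at -0.04 and -0.23, none past an unadjusted p of 0.05.

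Of 54 other interferon-stimulated genes tested, 45 were negative under IMQ with a median of -0.35, and 5 were lower and 1 higher at an unadjusted p under 0.05, none called. Over all genes tested 51.2% were negative, 11.9% lower and 10% higher by those rules. Without the female control 27 of the 54 were negative, with a median of 0.00. Mx1, a dynamin-like GTPase that blocks influenza virus, was at 911 and 476 in controls against 282 and 250 in labelled knockouts (-1.31, SE 0.42, limma adjusted p = 0.147). Cxcl10, a chemokine for T cells, was at 2693 and 1303 against 931 and 358 (-1.70, SE 0.50, limma adjusted p = 0.129). Both sets of labelled knockouts lay below both controls. The gene that was higher, Pnpt1, was at 0.44. Of 27 interferon gamma response genes tested, 22 were negative with a median of -0.55, and 7 were lower and 1 higher at an unadjusted p under 0.05, beside the same shares over all genes. Without the female control 14 of the 27 were negative, with a median of -0.05. Cxcl9, a chemokine that interferon gamma induces, was at 885 and 559 against 254 and 121 (-2.0, SE 0.57, limma adjusted p = 0.125). Gbp5 was at -1.76 and Gbp6 at -1.57.

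Of 7 negative regulators tested, 3 were higher and 1 lower under IMQ at an unadjusted p under 0.05, and none was called. Socs3 and Socs1, which block Jak kinases, were at 0.97 (SE 0.27, limma adjusted p = 0.120) and 0.78 (SE 0.32, 0.218) under IMQ. Socs3 was at 7870 and 10254 in IMQ controls and at 13783 and 22492 in IMQ labelled knockouts, without overlap. Ptpn6, a phosphatase that dampens Jak signalling, was at -0.69 (SE 0.26, adjusted p = 0.187). Tlr3, a receptor for double-stranded RNA, was at -0.98 (SE 0.29, adjusted p = 0.129), while Irak4, a kinase of Toll-like receptor signalling, and Myd88, the adaptor that recruits it, were at 0.58 and 0.42. Samhd1, a nuclease that limits viral replication, was at 1416 and 1515 in untreated controls and 3412 and 3318 in untreated labelled knockouts (1.20, SE 0.24, adjusted p = 0.358).

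Markers of other cell types also differed between the IMQ groups. The 8 macrophage and monocyte markers in the tables summed to 6810 and 4325 normalised counts in controls against 3610 and 4392 in labelled knockouts. Their median log2 fold change was -1.09. By limma, Adgre1, Mrc1, C1qa and C1qc were lower at an unadjusted p under 0.05, as were 11.9% of genes tested. Csf1r was near 0 at -0.12, and Cd68 went the other way at 0.17. The 5 endothelial markers summed to 540 in the female control against 73.6 to 88.4 in the other 3 IMQ libraries, and the 5 melanocyte markers to 2499 against 521 to 811. The female control was thus also the highest for these lists. Dermal fibroblast markers were higher in the male library of each IMQ group, at 6949 and 78987 in controls against 1901 and 49985 in labelled knockouts. The same order held in untreated skin, at 3999 and 17029 in controls against 1868 and 18745 in labelled knockouts. The sum of the neutrophil markers was higher in the labelled knockouts, at 18159 and 14040 against 1798 and 8341. S100a8, S100a9 and Cxcr2 made up nearly all of this sum, and keratinocytes also make S100a8 and S100a9. Csf3r went the other way, with a log2 fold change of -1.305 under IMQ. Retnlg, Mmp8 and Camp had too few reads to be tested. Siglech, the defining marker of plasmacytoid dendritic cells, had 0 to 6 reads per library. Of the other markers on that list, Cox6a2, Pacsin1 and Klk1 had 0 to 20 reads per library. Ccr9 had 127 to 266, Tcf4 592 to 1777 and Ly6d 44493 to 91284. Under IMQ their log2 fold changes were 0.08, -0.46 and 0.29, so the list gives no single reading. The part of plasmacytoid dendritic cells in the members' values was not tested.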

How the data were processed

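RNA sequencing of polyadenylated RNA (TruSeq stranded, 100-bp paired-end reads) was made from 8 epidermis samples, 2 per group. Per the submitters' processing notes the authors used STAR 2.5.2a on mm10 after Trimmomatic 0.35, and DESeq2 1.24.0 under R 3.6.1. Counter, annotation and gene filter: not given in the sources used here. Values that the authors deposited are a signal per gene in 2 separately scaled tables, the read count over the size factor of the library. All values were whole multiples of 1 step within 0.001 read, which gave recovered reads (28.6 to 43.1 M per library).

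Genotype contrasts were tested with limma 3.58.1 (R 4.3.3, trend and robust moderation) on log2(value + 1), with 4 group means over 8 libraries (4 residual degrees of freedom). Genes needed a mean of at least 10 in either table, with Benjamini-Hochberg adjustment over the 14614 left. All 39 members passed, 4 of them (Ifit3, Ifit3b, Oasl1 and Ifi44) through the IMQ table alone. IMQ against untreated used TMM-scaled CPM plus 0.5, without a test. Female and male deviations from the group means correlated between groups across genes (0.145 to 0.463, and 0.0744 to 0.393 on autosomes), and replicate numbers follow sex, so sex was tried as a block. edgeR 4.0.16 and DESeq2 1.42.0 on recovered reads, other pseudocounts, filters and scalings, and leaving out each library were also tried, and same-sex pairs, counts per list without the female IMQ control and fold counts without those 4 members were added after the data were seen. Every member could be named with its values. From the other lists the named genes were ligands, receptors, Tlr7, defining markers and up to 3 genes per list and contrast with the largest change at an unadjusted p under 0.05; Jak1, Tyk2, Pnpt1 and C1qa were named after their values were seen. Members and lists were chosen with earlier results of these data known. The pipeline was tested on simulated counts. Promoters came from RefSeq (GRCm38.p6), positions from GENCODE vM21, and plots from Python 3.11.15 with matplotlib 3.10.9.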

Additional observations from a re-analysis of the deposited data

Results flagged for a closer look

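Ifi44 stood on opposite sides of its controls in the 2 treatments. In untreated epidermis it was at 4.14 and 3.09 normalised counts in the labelled knockouts, above 2.59 and 2.15 in the controls, and under IMQ at 48.7 and 33.3, below 177 and 57.1. The difference of the genotype contrasts was -1.75 on the log2 scale (limma's adjusted p = 0.510), so the tested difference did not pass the threshold. The untreated values rest on 2 to 4 reads per library. Controls also differed in genotype, Ovol1 +/- untreated and +/+ under IMQ.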

How the results depend on the processing

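With sex as a replicate block limma called 0 members in each contrast, with a lowest adjusted p of 0.299 untreated, 0.109 under IMQ and 0.321 for the difference, and the block changed no call. DESeq2 called 4 members under IMQ, where limma and edgeR called 0, and the cause was not tested. Leaving out 1 library moved the members' median under IMQ between -1.11 and 0.032, the ends being without the male and without the female control. It was -0.91 without the female and -0.13 without the male labelled knockout, and such fits compare unequal sexes by construction. Leaving out 1 library moved the untreated median between -0.30 and -0.02 and the difference between -0.72 and 0.24. For IMQ against untreated, adding 5 in place of 0.5 to the CPM lowered the members at least 4-fold higher to 7 (controls) and 2 (labelled knockouts), and the median of the labelled knockouts to 1.07, since a larger added value shrinks the change of low genes. With 1 library left out, the count in the controls ran from 16 (without the female IMQ control) to 29, and the median in the labelled knockouts from 1.60 (without the female IMQ library) to 2.37. Other scalings, filters and pseudocounts of the genotype contrasts left each count of calls at 0. Ifit3, Ifit3b, Oasl1 and Ifi44 had few reads without IMQ, so their untreated differences are limited by depth.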
